A study of Mus musculus with 21 samples.

Results

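The genes described here are 48 genes of DNA replication and mitosis, measured by mRNA sequencing in mouse embryonic stem (ES) cells. They were chosen by symbol: of the 31053 Ensembl gene IDs in each count table, those whose symbol was on a list of 34 replication genes and 14 mitotic genes. Each of the 48 symbols matched exactly 1 ID, each gene had counts in all 21 libraries, and all 48 passed the filter on low counts. The rule names symbols and no measured value, though the list was drawn up with earlier results of these data known.

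All libraries came from E14Tg2a, a male 129 ES cell line with the destabilised green fluorescent protein GFPd2 knocked into Rex1 (Zfp42) on 1 of its alleles, so every group shared this reporter. By the labels, the cells grew in the serum-free medium NDiff227 with leukaemia inhibitory factor (LIF), and with CHIR99021 (CH), an inhibitor of the kinase GSK3, and PD0325901 (PD), an inhibitor of the kinase MEK, given or withdrawn at passages. The 7 groups of 3 libraries were 2i+LIF PO (2i being CH with PD), then 2i+LIF LP, CH+LIF LP and LIF LP, and then 2i+LIF HP, CH+LIF HP and LIF HP. The series describes cells at passage 0 and after 1 and 2 months of culture in different media. The labels do not spell out PO, LP and HP, so these are used as names only. Nothing in the labels says whether the 3 libraries of a group were separate cultures, so a p-value measures only the spread between those libraries, which may be technical.

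Replication begins when the origin recognition complex, Cdc6 and Cdt1 load the Mcm2 to Mcm7 helicase onto origins, which Mcm10 and the GINS complex later help to activate. Primase, the DNA polymerases and the clamp Pcna with its loader, replication factor C, then copy the strands, while ribonucleotide reductase, thymidylate synthase and thymidine kinase supply nucleotides. In mitosis the kinase Cdk1 with cyclin B, the Aurora and Polo kinases, the centromere and the spindle checkpoint condense, align and part the chromosomes. ES cells are known for a short cell cycle with a brief first gap phase. In bulk RNA, fewer cells in a phase of the cycle and less RNA of a gene per cell cannot be told apart.

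Gene counts per library ranged from 1132126 to 3783043 with a median of 1763531. The library of 2i+LIF LP replicate 1 and that of 2i+LIF PO replicate 1 stood apart: their log2 counts-per-million (CPM) correlated with those of the other libraries of their group at a mean r of 0.786 and 0.829, against 0.856 to 0.944 for the other 19. The noncoding RNA Gm42418 held 31.7% of the gene counts in the first and mitochondrial genes 39.1% in the second. The PO libraries also carried another sequencing run name, so that run and PO cannot be told apart. All 8 ES cell marker genes were counted in every library, with a summed level of 1330 to 3810 CPM, while 7 fibroblast markers summed to 3.83 to 36.9 CPM and none of them was counted in every library. Genes that respond to the inhibitors went against some labels: Dusp6, a target of the MEK pathway, averaged 0.411 CPM in the libraries labelled LIF HP and 20.5 CPM in those labelled 2i+LIF LP, and Sp5, a target of the Wnt pathway, averaged 1.03 CPM in CH+LIF LP. Group names below therefore mean the libraries so labelled.

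Promoter windows from RefSeq (assembly GRCm38.p6, 250 bases before to 50 after the start of transcription) were found for 38 of the 48 genes, 26 of replication and 12 of mitosis, and none was found for Aurkb, Ccna2, Gins4, Mcm4, Gins2, Ccne2, Prim2, Gins1, Rfc2 and Pole. Motifs of 3 kinds known from cell cycle promoters were searched on both strands: the E2F site as TTTGGCGC or TTTCGCGC, the cell cycle homology region (CHR) as TTTGAA, and the CCAAT box as CCAAT. The 4 sequences below are the 250 bases before the start for genes that differed between groups in later sections, and capitals mark the motif matches. Mki67 and Top2a stand for the mitotic genes, Orc1 for the replication genes with an E2F match, and Rrm1 for those with neither an E2F nor a CHR match.
Mki67 (chr7:135716380-135716629, minus strand): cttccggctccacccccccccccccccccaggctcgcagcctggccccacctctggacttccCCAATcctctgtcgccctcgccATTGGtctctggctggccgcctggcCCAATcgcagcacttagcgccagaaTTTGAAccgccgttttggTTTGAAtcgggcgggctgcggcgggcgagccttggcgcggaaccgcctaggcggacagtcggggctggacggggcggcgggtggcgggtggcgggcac
Top2a (chr11:99024190-99024439, minus strand): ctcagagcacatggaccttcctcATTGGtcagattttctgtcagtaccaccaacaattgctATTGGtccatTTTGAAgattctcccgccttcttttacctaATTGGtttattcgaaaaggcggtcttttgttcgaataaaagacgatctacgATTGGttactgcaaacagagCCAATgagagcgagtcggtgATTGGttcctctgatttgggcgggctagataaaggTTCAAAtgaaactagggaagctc
Orc1 (chr4:108579204-108579453, plus strand): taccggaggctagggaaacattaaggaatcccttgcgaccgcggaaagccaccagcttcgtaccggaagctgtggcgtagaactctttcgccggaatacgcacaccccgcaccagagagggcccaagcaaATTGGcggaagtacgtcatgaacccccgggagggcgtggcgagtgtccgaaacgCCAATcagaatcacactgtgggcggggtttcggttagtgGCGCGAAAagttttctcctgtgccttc
Rrm1 (chr7:102441445-102441694, plus strand): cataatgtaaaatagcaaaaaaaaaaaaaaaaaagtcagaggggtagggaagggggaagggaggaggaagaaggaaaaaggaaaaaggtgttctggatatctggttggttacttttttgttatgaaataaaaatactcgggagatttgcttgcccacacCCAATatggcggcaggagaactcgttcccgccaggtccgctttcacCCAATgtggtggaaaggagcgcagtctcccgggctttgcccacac
The Mki67 sequence held CHR matches 116 and 98 bases before the start and 3 CCAAT boxes, and that of Top2a held CHR matches 179 and 23 bases before the start and 6 CCAAT boxes. Orc1 had its E2F match 27 bases before the start, with 2 CCAAT boxes, and Rrm1 had 2 CCAAT boxes.

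The 2 groups of genes differed in these letters. A CHR match lay in 9 of 12 mitotic windows (75%), in 2 of 26 replication windows (7.69%, Mcm2 and Gins3) and in 20.2% of the windows of all 27025 genes. An E2F match lay in 8 of 26 replication windows (30.8%), those of Mcm3, Mcm5, Mcm6, Mcm7, Cdt1, Rfc3, Pola1 and Orc1, in that of Cdk1 alone among the mitotic genes (8.33%), and in 0.929% of all genes. CCAAT boxes lay in all 12 mitotic windows, in 17 of 26 replication windows (65.4%) and in 41.1% of all genes. The plot of motif shares shows these values, which describe letters in a window and not binding.

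**Figure D1:**
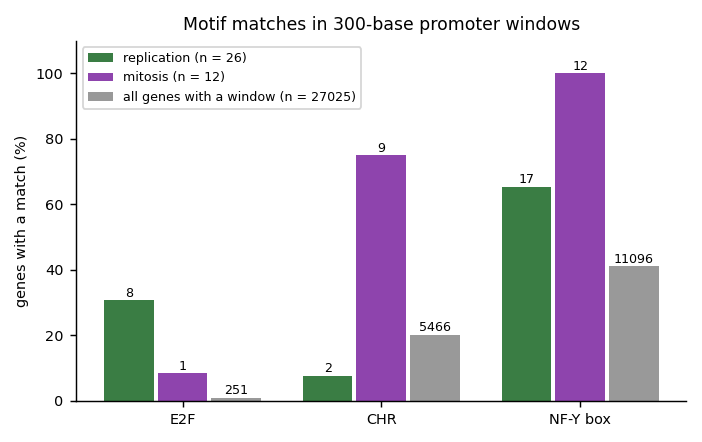
Share of genes (y axis, percent) with at least 1 match to each motif (x axis; the CCAAT box is labelled by its factor, NF-Y) in the 300-base promoter windows of 26 replication genes, 12 mitotic genes and all 27025 genes with a window, with the number of genes on each bar. CHR matches were in 75% of the mitotic and 7.69% of the replication windows.

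Per kilobase of transcript, the members spanned a wide range of levels. Averaged over the 18 libraries of the cultured groups (all but PO), Top2a, the topoisomerase that untangles sister chromatids, was highest at 206 CPM per kb, followed by the helicase subunit Mcm7 at 189, with its partner Mcm3 in the third place, the mitotic exit activator Cdc20 at 123 and the clamp loader subunit Rfc5 at 110. The lowest were the primase subunit Prim2 at 6.42, the polymerase alpha subunit Pola2 at 5.14 and the kinase Aurkb at 2.89 CPM per kb. Mki67, which encodes the proliferation antigen Ki-67 that coats mitotic chromosomes, came to 19.7 CPM per kb. Both groups of genes therefore held abundant and rare transcripts. The ranks are of the mean over these libraries and were not taken within groups. Of the 48 members, 13 overlap another gene of the count tables. Among them are Mcm7 (Ap4m1 and Cops6), Cdc20 (Elovl1) and Rfc5 (Wsb2), all overlapped on the opposite strand. The strand setting of the counts is not given, so reads of these genes cannot be told apart.

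Summed over the 14 mitotic genes, the 3 LIF HP libraries were the lowest of all 21, a ranking that rested on Top2a, which made up 30.6% to 61.8% of the sum. Their sums were 1564, 1429 and 1477 CPM, the next lowest library (2i+LIF PO replicate 2) had 1881 CPM, and the highest (CH+LIF HP replicate 1) had 2984 CPM. The group means were 1930 ± 73.8 CPM in 2i+LIF PO, 2460 ± 366 in 2i+LIF LP, 2670 ± 111 in CH+LIF LP, 2850 ± 191 in LIF LP, 2180 ± 107 in 2i+LIF HP, 2720 ± 302 in CH+LIF HP and 1490 ± 68.4 in LIF HP (SD, n = 3 each). The order from LIF HP upwards was thus PO, 2i+LIF HP, 2i+LIF LP, CH+LIF LP, CH+LIF HP and LIF LP, and from 2i+LIF HP upwards the libraries of each group overlapped those of the next. Without Top2a, an alternative added after the sums were seen, the LIF HP libraries were at 963, 957 and 997 CPM and no longer the lowest: 2i+LIF HP replicate 3 was at 819 CPM and 2i+LIF LP replicate 1 at 873 CPM. The LIF HP mean of 972 CPM was then next to 1100 CPM in 2i+LIF HP.

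Over the 34 replication genes the groups lay closer together. LIF HP was again the lowest at 3240 ± 67.4 CPM, with libraries at 3278, 3271 and 3158, but LIF LP replicate 1, at 3260 CPM, lay among them. The PO libraries were at 3699, 3409 and 3548 CPM. The other means were 3770 ± 298 in 2i+LIF HP, 3840 ± 502 in LIF LP, 4020 ± 390 in CH+LIF LP, 4100 ± 171 in 2i+LIF LP and 4100 ± 239 in CH+LIF HP (SD, n = 3 each). The ratio of the mitotic to the replication sum, which needs no scaling between libraries, was 0.461 ± 0.021 in LIF HP (0.477, 0.437 and 0.468), below the lowest other library at 0.505 (0.542 without the 2 libraries that stood apart), and 0.747 ± 0.052 in LIF LP (SD, n = 3 each). In the other 5 groups its mean lay between 0.544 and 0.665. Without Top2a the ratio was 0.294, 0.293 and 0.316 in LIF HP, within the range of 2i+LIF HP (0.304, 0.374 and 0.207), and so LIF HP was no longer the lowest. Neither the sums nor the ratio were corrected for the trend on transcript length given below, in which the LIF HP libraries differed from the others.

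**Figure D2:**
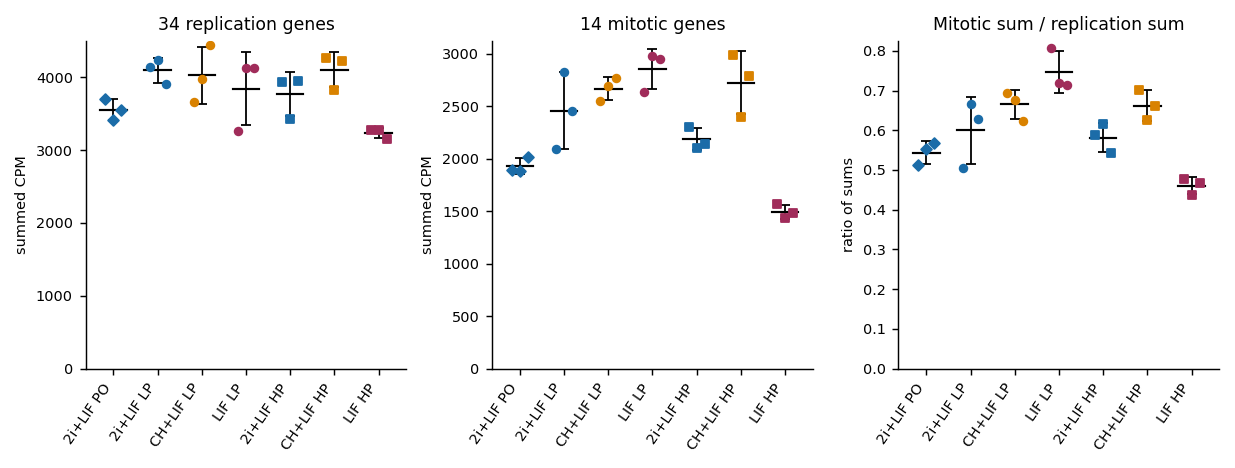
Summed CPM of the 34 replication genes, of the 14 mitotic genes, and the ratio of the mitotic to the replication sum (y axes) by group (x axis). Points are libraries, the horizontal line is the group mean and the bar is 1 SD (n = 3), and the LIF HP libraries hold the 3 lowest mitotic sums, 1429 to 1564 CPM, when Top2a is counted in them.

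Counted gene by gene, LIF HP had the lowest mean CPM of the 6 cultured groups in 10 of the 14 mitotic genes (71.4%) and 12 of the 34 replication genes (35.3%), against 24.6% of all 10643 genes tested. It also had the highest mean in 9 of the 34 replication genes (26.5%), near its share of 24.5% in all genes tested. A single edgeR quasi-likelihood test for any difference among the 6 cultured groups, with Benjamini-Hochberg adjustment over all genes tested and a threshold of 0.05, called 2 of 14 mitotic genes, Mki67 (adjusted p = 0.00273) and Top2a (0.0481), and 3 of 34 replication genes, Rrm1 (0.031), Gins4 (0.0317) and Gins2 (0.0358). Of all genes tested, 13.1% were called, and the members' 5 of 48 was near that share. Mki67 stayed called with each of the 21 libraries left out in turn, with adjusted p up to 0.0237. It was the only member called without LIF LP replicate 2 or any 1 LIF HP library, and Top2a reached an adjusted p of 0.213.

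At LP, no member was called between media by edgeR. CH+LIF LP against 2i+LIF LP called no member (0% of all genes) with 2 members at an unadjusted p under 0.05, LIF LP against CH+LIF LP called none (0.047% of all genes) with 0 such members, and LIF LP against 2i+LIF LP called none (0.489% of all genes) with 1 such member. DESeq2 likewise called 0 members in each of the 3. The 14 mitotic genes had a median log2 fold change of 0.51 in the first of these, with 10 of them positive, beside 0.16 for the replication genes and 0.05 for all genes. The largest values there were 1.31 for Gins2 (SE 0.50, adjusted p = 0.479) and 1.13 for Aurkb, and neither passed. The spread of 2i+LIF LP was wide for many members: Cdc20 averaged 167 ± 129 CPM and Mcm3 622 ± 310 CPM (SD, n = 3).

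At HP, CH+LIF against 2i+LIF called no member (2.02% of all genes), with 4 members at an unadjusted p under 0.05 and 0 by DESeq2. All 14 mitotic genes had a positive log2 fold change, with a median of 0.50, beside a median of 0.15 for the replication genes, 23 of 34 positive, and -0.01 for all genes. The largest were Ccnb2, a B-type cyclin, at 1.28 (SE 0.49, adjusted p = 0.244) and the origin recognition subunit Orc1 at 1.11 (SE 0.37, adjusted p = 0.148). Without the libraries of 2i+LIF LP replicate 1 and PO replicate 1, Ccnb2 was the 1 member called, beside 4.95% of all genes. Passage comparisons in these media were also without calls. 2i+LIF HP against 2i+LIF LP called 0 members (3.67% of all genes), with 5 at an unadjusted p under 0.05 and 1 by DESeq2, Orc1, and CH+LIF HP against CH+LIF LP called 0 (0.0094% of all genes), with 0 at an unadjusted p under 0.05 and 0 by DESeq2. In CH+LIF the members' values moved little, from -0.61 to 0.70 on the log2 scale.

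The calls lay in the 3 comparisons with LIF HP. LIF HP against CH+LIF HP called 1 of 48 members (1.47% of all genes), LIF HP against 2i+LIF HP called 4 of 48 (3.78% of all genes) and LIF HP against LIF LP called 4 of 48 (9.96% of all genes). In the last, the members' share was near that of all genes. With the 2 libraries that stood apart left out these counts were 7, 7 and 12, beside 6.92%, 13% and 21.6% of all genes. With DESeq2 they were 3, 6 and 7, beside 3.81%, 6.36% and 12.8%, and fitted on the libraries of the compared groups alone they were 15, 4 and 13, beside 13.1%, 7.13% and 27.8%. Without LIF HP replicate 2 the first 2 counts were 0, as was the first without LIF HP replicate 3 or CH+LIF HP replicate 1 or 3, and without LIF LP replicate 2 or 3 or LIF HP replicate 1 or 3 the last was 2. The shares of all genes called fell in the same fits, to 0.263% and 1.11% in the first 2 comparisons without LIF HP replicate 2, to between 0.351% and 0.397% in the first without the other 3 libraries, and to between 3.59% and 7.36% in the last. The summed level of 5 neural markers was 91.1 to 133 CPM in LIF HP and 192 to 202 CPM in LIF LP (2 of the 5 were counted in every library, and Neurog2 had no count in either group), 46.7 to 58.6 CPM in CH+LIF HP, and in 2i+LIF HP from 34.5 CPM to above the highest LIF HP library, and its part in these results was not tested. The 3 comparisons share the LIF HP libraries, so their values are given side by side and not as independent evidence.

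Mki67 (chr7:135689784-135716361, minus strand, in GENCODE M21 on GRCm38) had the lowest adjusted p of the members in each of the 3. Its levels were 76.8, 33.3 and 73.2 CPM in LIF HP, 332, 313 and 232 in LIF LP, 189, 169 and 215 in CH+LIF HP and 227, 125 and 182 in 2i+LIF HP. In 2i+LIF LP they were 293, 255 and 234 CPM, in CH+LIF LP 220, 202 and 193, and in PO 139, 59.1 and 76.3. Every LIF HP library lay below every other cultured library, and LIF HP and PO overlapped.
Against LIF LP, Mki67 fell by 2.26 on the log2 scale (SE 0.37, adjusted p = 0.000434), and it stayed called with each of the 21 libraries left out in turn, with adjusted p up to 0.00715. Against CH+LIF HP it fell by 1.65 (SE 0.36, adjusted p = 0.0186), a call lost without CH+LIF HP replicate 1 or 3 or LIF HP replicate 2 or 3, with adjusted p up to 0.152. Against 2i+LIF HP it fell by 1.55 (SE 0.36, adjusted p = 0.0166), a call lost without 2i+LIF HP replicate 1 or LIF HP replicate 2, with adjusted p up to 0.12.

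For Top2a (chr11:98992943-99024189, minus strand) LIF HP was likewise the lowest cultured group. Its levels were 601, 472 and 480 CPM in LIF HP, 1252, 1423 and 1431 in LIF LP, 1292, 1018 and 1124 in CH+LIF HP and 1111, 825 and 1323 in 2i+LIF HP. In 2i+LIF LP they were 1219, 1331 and 1069 CPM and in CH+LIF LP 887, 1189 and 1273. Again no other cultured library reached down to LIF HP, while the PO libraries (857, 575 and 647 CPM) overlapped it. Top2a fell by 1.40 on the log2 scale in LIF HP against LIF LP (SE 0.32, adjusted p = 0.00791), and this call held with each of the 21 libraries left out in turn. Its values were -1.14 against CH+LIF HP (adjusted p = 0.074) and -1.07 against 2i+LIF HP (adjusted p = 0.0585), neither past the threshold, though both passed with the 2 libraries that stood apart left out.

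The remaining 12 mitotic genes were not called in any comparison of media or passage. Next in size in LIF HP against LIF LP were Cenpe, the kinesin that carries chromosomes to the spindle equator, at -1.24 (SE 0.42, adjusted p = 0.0592), and the checkpoint kinase gene Bub1 at -0.99 (SE 0.35, adjusted p = 0.0693). Cenpe was 118, 54.8 and 104 CPM in the LIF HP libraries and 259, 187 and 208 CPM in those of LIF LP, without overlap. Both Cenpe and Bub1 were called there with the 2 libraries that stood apart left out. Of the 14 mitotic genes, 12 had a negative log2 fold change in LIF HP against LIF LP, with a median of -0.43 (all genes 0.01). In LIF HP against CH+LIF HP 13 of 14 were negative, with a median of -0.80 (all genes 0.01), and in LIF HP against 2i+LIF HP 10 of 14, with a median of -0.20 (all genes -0.02).

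The mitotic cyclins and kinases showed smaller values. Ccnb1, the main cyclin B, was 130 ± 15.4 CPM in LIF HP and 159 ± 44.2 in LIF LP, and its kinase Cdk1 was 127 ± 18.8 and 81.0 ± 31.5 CPM (SD, n = 3 each). Plk1, the Polo-like kinase, was 102 ± 36.3 and 127 ± 23.6 CPM, and Aurka 45.8 ± 6.31 and 53.1 ± 11.3 CPM. The cyclin Ccna2 was 41.1 ± 17.7 CPM in LIF HP and 67.4 ± 12.9 in LIF LP, and Ccnb2 47.3 ± 12.4 and 52.7 ± 16.1 CPM. Aurkb was 4.04 ± 3.43 and 5.16 ± 2.91 CPM, and Bub1b 23.1 ± 7.25 and 32.6 ± 12.9 CPM. Cenpa, the histone H3 variant that marks centromeres, was 107 ± 35.1 CPM in LIF HP and 61.4 ± 15.5 in LIF LP. Cdk1 and Cenpa were the 2 mitotic genes with a positive value there, 0.64 and 0.79 on the log2 scale, and neither passed the test.

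Among replication genes the calls with LIF HP went both ways: Orc1, Gins2 and Gins4 were higher and Pole and Rrm1 lower. Orc1 (chr4:108579423-108614833, plus strand) was 39.2, 56.7 and 77.3 CPM in LIF HP and 26.5, 25.1 and 9.58 in 2i+LIF HP, without overlap, and rose by 1.45 on the log2 scale (SE 0.37, adjusted p = 0.0274). The LIF HP values of Orc1 were spread, and those of LIF LP (29.7, 40.5 and 45.7 CPM) and CH+LIF HP (42.2, 44.4 and 48.7) overlapped them. At 44.9, 34.9 and 58.7 CPM in 2i+LIF LP, 57.7, 49.0 and 46.3 in CH+LIF LP and 70.2, 44.2 and 66.6 in PO, Orc1 was higher than in 2i+LIF HP, whose libraries were the lowest of all 21. The call was lost without replicate 2 or 3 of either group, with adjusted p up to 0.161.

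Gins2 and Gins4 encode subunits of the GINS complex, which joins the Mcm helicase at the fork. Gins2 (chr8:120578633-120589304, minus strand) was 87.6, 119.5 and 142.2 CPM in LIF HP against 47.4, 35.4 and 16.3 in 2i+LIF HP, and rose by 1.79 on the log2 scale (SE 0.50, adjusted p = 0.0439). In 2i+LIF LP Gins2 was at 9.82, 41.8 and 34.1 CPM, in CH+LIF LP at 49.4, 83.5 and 83.5, in LIF LP at 39.1, 43.2 and 67.3 and in CH+LIF HP at 62.9, 72.5 and 67.0. All of these were below LIF HP, while PO, at 23.2, 135.4 and 77.5 CPM, overlapped it. This call was lost in 15 of the 21 fits that left out 1 library, among them those without any 1 of the LIF LP, 2i+LIF HP, CH+LIF HP or LIF HP libraries, CH+LIF LP replicate 2 or 3 or PO replicate 3, with adjusted p up to 0.176. Gins2 overlaps Gse1 and Gm20388 on the opposite strand, and the strand setting of the counts is not given in the sources used here, so reads of these genes cannot be told apart from those of Gins2.
Gins4 (chr8:23226616-23237659, minus strand) was 75.8, 81.9 and 89.6 CPM in LIF HP, above all other 18 libraries, and 39.1, 31.2 and 39.9 in LIF LP. The other libraries were at 28.1, 42.2 and 20.7 CPM in 2i+LIF LP, 37.3, 41.8 and 48.6 in CH+LIF LP, 44.1, 42.5 and 41.9 in CH+LIF HP, 32.7, 48.1 and 62.3 in PO and 59.95, 36.0 and 63.3 in 2i+LIF HP. Gins4 rose by 1.16 against LIF LP (SE 0.33, adjusted p = 0.0277), a call lost without any 1 of the 3 LIF LP or 3 LIF HP libraries, with adjusted p up to 0.115, and also without the filter on low counts. Of the other GINS genes, Gins1 was 24.3 ± 10.6 CPM in LIF HP and 31.0 ± 6.55 in LIF LP, and Gins3 48.2 ± 8.03 and 71.3 ± 6.71 (SD, n = 3 each), neither called.

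Of the replication genes, Pole and Rrm1 were called lower in LIF HP. Pole, the catalytic subunit of the leading-strand polymerase epsilon (chr5:110286306-110337474, plus strand), was 31.4, 24.6 and 38.1 CPM in LIF HP and 102, 62.7 and 71.9 in 2i+LIF HP, and fell by 1.34 on the log2 scale (SE 0.35, adjusted p = 0.0318). Pole was at 56.8, 56.4 and 65.4 CPM in 2i+LIF LP, 46.5, 47.8 and 55.4 in CH+LIF LP, 66.1, 73.0 and 36.6 in LIF LP, 77.9, 61.1 and 86.8 in CH+LIF HP and 51.7, 23.0 and 42.6 in PO, so that LIF HP overlapped LIF LP and PO. The call of Pole was lost without 2i+LIF HP replicate 1 or 3 or any 1 LIF HP library, with adjusted p up to 0.152. Pole overlaps Gm15792 on the opposite strand, whose reads cannot be told apart from its own. Pold1, the catalytic subunit of polymerase delta, had -1.48 in the same comparison (SE 0.44, adjusted p = 0.056) and overlapped between the groups.
Rrm1, the large subunit of ribonucleotide reductase (chr7:102441695-102469771, plus strand), was 56.7, 57.9 and 57.7 CPM in LIF HP and 118 ± 33.3 CPM (SD, n = 3) in LIF LP, whose lowest library was at 88.1 CPM, and fell by 1.04 (SE 0.30, adjusted p = 0.0258). Rrm1 was at 119, 124 and 106 CPM in 2i+LIF LP, 139.5, 125 and 128 in CH+LIF LP, 83.1, 96.4 and 110 in CH+LIF HP, 121, 86.6 and 88.0 in PO and 64.6, 63.2 and 87.2 in 2i+LIF HP. The LIF HP libraries were the lowest of all 21. This call was lost without LIF LP replicate 2 or 3 or any 1 LIF HP library, with adjusted p up to 0.149, and also without the filter on low counts. The other nucleotide genes differed in sign: in LIF HP against LIF LP Tk1, thymidine kinase, had 1.58 (SE 0.52, adjusted p = 0.0503), and Tyms, thymidylate synthase, was 109 ± 11.5 CPM against 83.3 ± 5.93 (SD, n = 3 each). Tk1 overlaps Afmid and Gm20708 on the opposite strand, whose reads cannot be told apart from its own.

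The Mcm helicase and licensing genes were not called in any comparison of media or passage other than Orc1. Mcm7 was 355 ± 60.6 CPM in LIF HP and between 538 ± 179 and 619 ± 37.2 in the other cultured groups except 2i+LIF LP, which was higher still, and Mcm10 was 51.2 ± 15.0 CPM and 85.7 ± 17.0 to 112 ± 38.5 (SD, n = 3 each). Mcm10 was called lower in all 3 comparisons of LIF HP with the 2 libraries that stood apart left out. Pcna was 63.0 ± 6.13 CPM in LIF HP and 82.9 ± 23.5 in LIF LP, and Cdc6 21.3 ± 3.34 and 25.6 ± 6.65 CPM. The median log2 fold change of the 34 replication genes was -0.17 in LIF HP against LIF LP (20 negative), -0.30 against CH+LIF HP (24 negative) and -0.14 against 2i+LIF HP (18 negative), each nearer 0 than that of the mitotic genes. The plots of levels by library show the called members, and the map of fold changes shows all 48.

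**Figure D3:**
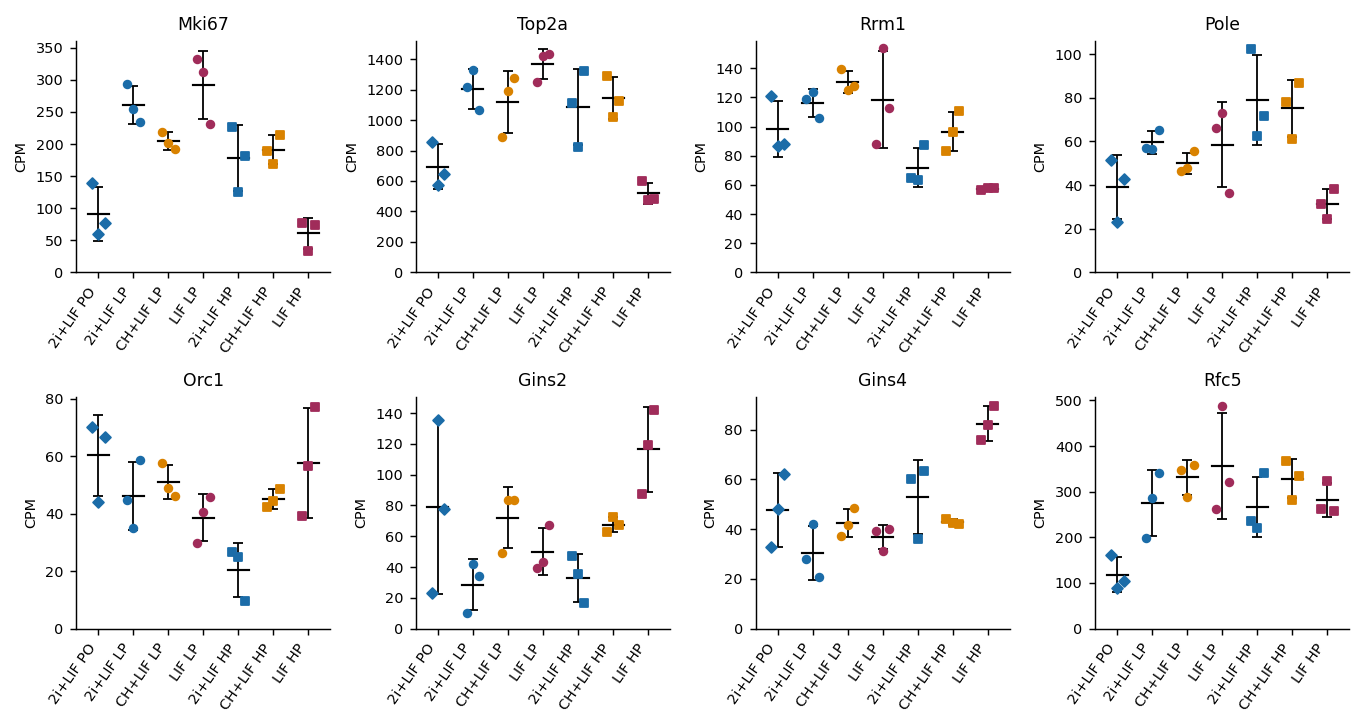
CPM (y axis, from 0) of 8 members in each of the 7 groups (x axis). Points are libraries, the horizontal line is the mean and the bar is 1 SD (n = 3); in Mki67 the LIF HP libraries sit between 33.3 and 76.8 CPM, below all other cultured libraries, and in Gins4 between 75.8 and 89.6, above all other libraries.

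**Figure D4:**
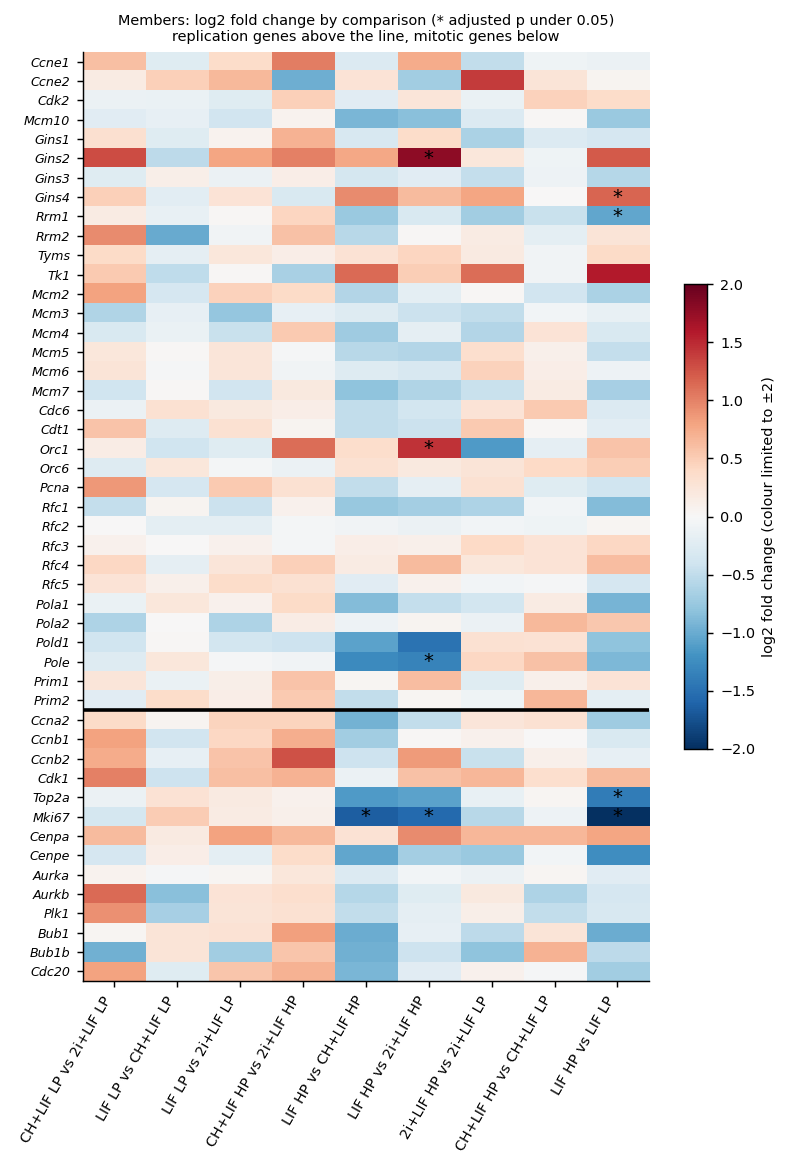
Log2 fold change (colour, limited to ±2) of the 34 replication genes (above the line) and 14 mitotic genes (below) in 9 comparisons of media and passage (columns). Stars mark an adjusted p under 0.05 by edgeR, and all of them lie in the 3 comparisons of LIF HP.

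Transcript length moved with these results. As the difference between the median centred log2 CPM of genes with transcripts up to 1 kb and of genes over 8 kb, the LIF HP libraries had 0.76, 2.05 and 1.48, and the other 18 libraries -1.85 to 0.64. In LIF HP against LIF LP the median log2 fold change of all genes went from 1.16 for transcripts up to 1 kb through 0.48, 0.01 and -0.34 to -0.80 over 8 kb. The members' medians in the same classes were -0.12 for the 15 of 1 to 2 kb, -0.30 for the 24 of 2 to 4 kb and -0.89 for the 8 of 4 to 8 kb, each below that of all genes. Mki67, with a transcript of 10061 bases, was the only member over 8 kb, and Pole (7163 bases), Top2a (5221) and Rrm1 (3997) were among the longer ones, while Gins4 (1349) and Tk1 (1440) were among the shorter. Gins2 (3900) and Orc1 (3014), both called higher in LIF HP than in the 2i+LIF group of that passage, were not short. The LIF HP libraries also had the 3 highest shares of reads ambiguous between genes, 0.549%, 0.573% and 0.683% (next 0.546% in PO replicate 2), and 30.3% to 35.4% of reads aligned more than once (20.8% to 30.4% elsewhere), and the part of these shares in the results was not tested.

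The comparisons were fitted again with the trend on transcript length removed within each library, an alternative chosen after the trend was seen. Against LIF LP (6.09% of all genes called) Mki67 was still called at -1.56 (adjusted p = 0.000904) and Top2a at -1.06 (adjusted p = 0.029), while Gins4 was at 0.63 (adjusted p = 0.259) and Rrm1 at -0.86 (adjusted p = 0.0728). Against CH+LIF HP (1.36% of all genes called) Mki67 was called at -1.24 (adjusted p = 0.0181). Against 2i+LIF HP (3.29% of all genes called) Mki67 (-1.10, adjusted p = 0.0226), Orc1 (1.47, adjusted p = 0.0224) and Gins2 (1.93, adjusted p = 0.0283) were called, and Pole was not (-0.94, adjusted p = 0.108).
The mitotic median with the trend removed was -0.60 against LIF LP, -0.73 against CH+LIF HP and -0.30 against 2i+LIF HP, beside -0.26, -0.39 and -0.23 for the replication genes. LIF HP then had the lowest mean log2 CPM of the cultured groups in 9 of 14 mitotic genes (64.3%) and 16 of 34 replication genes (47.1%), against 21.5% of all genes tested. The counts given earlier ranked mean CPM, so a change from them is not that of the length step alone. In these 3 comparisons the calls of Gins4, Rrm1 and Pole thus did not outlast this step, and those of Mki67, Top2a, Orc1 and Gins2 did. In the joint test of the cultured groups the call of Top2a did not (adjusted p = 0.133).

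**Figure D5:**
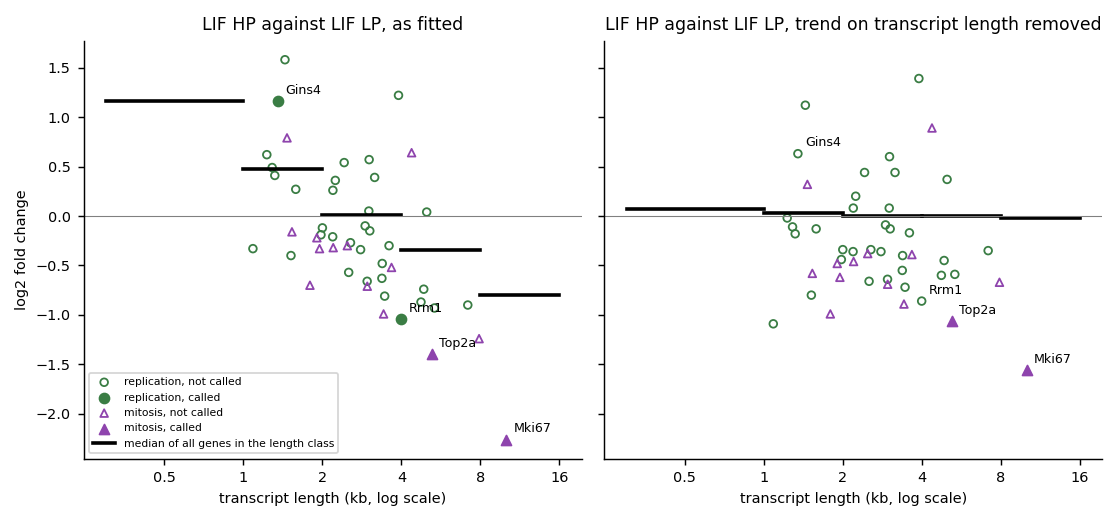
Log2 fold change in LIF HP against LIF LP (y axis) by transcript length (x axis, kb, log scale) for the 48 members, as fitted (left) and with the length trend removed (right). Circles are replication and triangles mitotic genes, filled where called, and black lines are medians of all genes in a length class, which run from 1.16 to -0.80 on the left; Mki67 and Top2a are filled in both panels.

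Whether the passage difference itself depended on the medium was tested as an interaction, and edgeR called 0 members in each of 3 tests. The difference between LIF and CH+LIF in their HP against LP changes (0.423% of all genes called) was -2.16 for Mki67 (SE 0.50, adjusted p = 0.0504) and -1.44 for Top2a (SE 0.45, adjusted p = 0.194), with 6 members at an unadjusted p under 0.05. DESeq2 called both genes there, as did the fit without the 2 libraries that stood apart. Between LIF and 2i+LIF (0.15% of all genes called) Mki67 had -1.71 (SE 0.50, adjusted p = 0.164) and Orc1 1.71 (SE 0.52, adjusted p = 0.178), with 4 members at an unadjusted p under 0.05 and 3 called by DESeq2. Between CH+LIF and 2i+LIF (0.0188% of all genes called) 1 member had an unadjusted p under 0.05 and DESeq2 called 0. It is therefore not shown that the fall of Mki67 from LP to HP was specific to LIF.

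Other genes of the same machinery, came from a list of 30 further replication and 30 further mitotic genes. In LIF HP against LIF LP, 7 of the 30 further mitotic genes fell and none rose, while none of the 30 further replication genes was called by edgeR, with 2 at an unadjusted p under 0.05, and 9.96% of all genes were called. The difference between the lists was not tested, and of the 48 members the same comparison called 2 mitotic and 2 replication genes. Those that fell included Kif11 and Kif4, motors of the spindle and chromosomes, at -2.05 (adjusted p = 0.000358) and -2.04 (0.00265), and the checkpoint kinase gene Ttk at -1.76 (0.00202). Their means in LIF HP and in PO were 27 and 38.4 CPM for Kif11, 11.3 and 18.6 for Kif4 and 77.8 and 65.4 for Ttk. In LIF LP all 3 were called higher than in PO (1.53, 1.40 and 2.01, beside 12% of all genes called). With the length trend removed 7 of the 30 fell in LIF HP against LIF LP (6.09% of all genes called), 5 of them also called before, among them Kif11 (-1.74), Kif4 (-1.76) and Ttk (-1.76). Against CH+LIF HP 4 of 30 fell (1.47% of all genes called), with Kif4 (-1.94), Kif11 (-1.82) and Ttk (-1.35) the largest. Against 2i+LIF HP 2 of 30 fell (3.78% of all genes called), Kif4 (-1.58) and Kif11 (-1.14). With the length trend removed 4 fell against CH+LIF HP (1.36% of all genes called). Against 2i+LIF HP (3.29% of all genes called) only Kif4 did (-1.38, adjusted p = 0.0488), Kif11 being at -0.93 (adjusted p = 0.135). In both, edgeR called 0 further replication genes, with 1 and 4 at an unadjusted p under 0.05.

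Of 22 regulators of the cell cycle, 20 could be tested. In LIF HP against LIF LP (9.96% of all genes called) the inhibitor genes Cdkn2a (2.28, adjusted p = 0.00791) and Cdkn1a, which encodes p21 (1.50, adjusted p = 0.0105), rose. Rb1 (-1.83, adjusted p = 0.0252) and the repressor E2f8 (-1.75, adjusted p = 0.0168) fell. Cdkn1a was 503, 414 and 378 CPM in LIF HP, 145.4, 142.1 and 171 in LIF LP and 98.6, 135 and 75.4 in CH+LIF HP, and it also rose against CH+LIF HP (2.07, adjusted p = 0.00394, 1.47% of all genes called). Against 2i+LIF HP, at 259 to 276 CPM, Cdkn1a had 0.69 and was not called (adjusted p = 0.286). No regulator was called there (3.78% of all genes called), with 5 at an unadjusted p under 0.05. The PO libraries (224 to 530 CPM of Cdkn1a) overlapped those of LIF HP. With the length trend removed, in LIF HP against LIF LP (6.09% of all genes called) Cdkn1a (1.30, adjusted p = 0.0221) and E2f8 (-1.62, adjusted p = 0.0268) stayed called, and Cdkn2a (adjusted p = 0.0616) and Rb1 (0.0636) did not. Of the comparisons of media or passage without LIF HP, CH+LIF HP had less Cdkn1a than 2i+LIF HP (-1.38, adjusted p = 0.0426, 2.02% of all genes called). 2i+LIF HP had more E2f1, an activator of replication genes, than 2i+LIF LP (1.55, adjusted p = 0.0145, 3.67%). Regulators called against PO included E2f8, higher in 2i+LIF LP (2.28, adjusted p = 0.00509), CH+LIF LP (2.25, 0.00316) and LIF LP (2.22, 0.00214). Cdkn1a was lower than in PO in LIF LP (-1.33, 0.0168) and CH+LIF HP (-1.90, 0.00346), and Cdkn1b in 2i+LIF LP (-2.73, 0.0234) and 2i+LIF HP (-2.11, 0.0458). Foxm1 and Mybl2, which drive transcription of mitotic genes, had -1.03 (adjusted p = 0.157) and -0.60 (adjusted p = 0.282) in LIF HP against LIF LP and were not called.

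Against PO, which was sequenced under another run name, few members were called in any of the 6 comparisons. Rfc5 (chr5:117378103-117389047, minus strand) was higher in all 6, with log2 fold changes from 1.17 in 2i+LIF HP to 1.60 in LIF LP; its PO libraries were at 162, 89.2 and 103 CPM, and all 18 others lay at 198 CPM or above. Rfc5 overlaps Wsb2 on the opposite strand, whose reads cannot be told apart. The primase catalytic subunit Prim1 (chr10:128015168-128030037, plus strand), at 29.0, 32.9 and 23.4 CPM in PO, was higher in CH+LIF LP (1.41), LIF LP (1.28), CH+LIF HP (1.52) and LIF HP (1.56). Rfc5 in CH+LIF LP and LIF LP and Prim1 in LIF HP stayed called with each of the 21 libraries left out in turn, but Prim1 in LIF HP was not called with the length trend removed (1.10, adjusted p = 0.0573). The others were lost without 1 or more libraries, in every case among them PO replicate 2 or 3. Because the 6 comparisons share the PO libraries and the run, these are not 6 separate observations.

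Among mitotic genes, Mki67 rose by 1.52 in 2i+LIF LP (adjusted p = 0.0148), 1.17 in CH+LIF LP (0.0412) and 1.68 in LIF LP (0.00327), and Top2a by 0.98 in LIF LP (0.0441). The call of Mki67 in LIF LP held with each library left out, that in 2i+LIF LP was lost without PO replicate 2 or 3 (adjusted p up to 0.0879), and those of Mki67 in CH+LIF LP and of Top2a were lost in 9 and 12 of 21 such fits, with adjusted p up to 0.153 and 0.138. In full, edgeR called 2 of 48 members in 2i+LIF LP (5.06% of all genes), 3 in CH+LIF LP (8.31%), 4 in LIF LP (12%), 3 in 2i+LIF HP (10.6%), 2 in CH+LIF HP (5.82%) and 3 in LIF HP (12.3%), so that each share was near or below that of all genes. In 2i+LIF HP Orc1 fell by 1.52 (adjusted p = 0.00929) and Ccne2, a cyclin E, rose by 1.92 (adjusted p = 0.0276) although its libraries overlapped (52.1, 92.1 and 244 CPM against 78.6, 12.6 and 13.0 in PO) and although reads of Ints8, which lies on the opposite strand across Ccne2, cannot be told apart. In LIF HP Cenpe (chr3:135212537-135273611, plus strand) fell by 1.38 (adjusted p = 0.0343), also with overlap, since PO replicate 1 stood at 455 CPM and the other PO libraries at 108.5 and 156.6. The call of Cenpe was lost without PO replicate 1 alone (-0.55, adjusted p = 0.388), without LIF HP replicate 2 or 3, and with the length trend removed (-0.62, adjusted p = 0.236). Those of other genes were lost without single libraries too, Ccne2 without PO replicate 2 or 3 or 2i+LIF HP replicate 3 and Orc1 without 2i+LIF HP replicate 3. Without PO replicate 1 and 2i+LIF LP replicate 1 Cenpe was not called, and the counts were 7, 7, 13, 10, 9 and 6 in the same order, beside 9.89%, 13.1%, 20.8%, 19.6%, 11.8% and 12.7% of all genes. Fitted on the compared groups alone they were 0, 0, 3, 0, 2 and 2, beside 0.0101%, 4.27%, 8.21%, 3.32%, 4.2% and 6.35% of all genes. The median of all genes was -0.101 in LIF HP against PO, a shift to which the members' values there are relative. Marker levels differed from PO too. The 8 ES cell markers summed to 2990 to 3810 CPM in PO, 1690 to 3060 in 2i+LIF LP, 1510 to 1630 in CH+LIF LP and 1760 to 2100 in LIF LP. The 5 neural markers summed to 19 to 63.3, 106 to 233, 127 to 135 and 192 to 202 CPM in the same order. Their part in these results was not tested.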

How the data were processed

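Messenger RNA was sequenced from 21 libraries, 7 groups of 3. Per the submitters' processing notes, bcl2fastq, STAR 2.6.0a, HTSeq and the build mm10 (GRCm38) were used. The annotation and the strand setting of the counting are not given in the sources used here. The authors deposited raw counts per Ensembl gene ID, and the 5 closing entries, which name no gene, were left out: gene counts were 47.4% to 62% of all entries, reads without a feature 8.46% to 25.8%, ambiguous reads 0.179% to 0.683% and reads aligned more than once 20.8% to 35.4%.

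Symbols, transcript lengths and locations came from GENCODE M21, which held 30934 of the 31053 IDs, and promoters from RefSeq. Groups came from the sample labels. Counts were filtered with filterByExpr (10643 genes), scaled by TMM and tested with edgeR 4.0.16 (R 4.3.3) by the quasi-likelihood F-test in 1 model of all 21 libraries with 14 residual degrees of freedom, with Benjamini-Hochberg adjustment per comparison over all genes tested and a threshold of 0.05. Comparisons were 15 pairs of groups, 3 interactions of medium and passage, and a joint test of the 6 cultured groups. Levels are CPM on TMM-scaled library sizes, and SE is the log2 fold change divided by the square root of F. A low total limits precision: the lowest total of a member over all libraries was 275 counts. The steps were tested on simulated data. Replicate numbers were taken as pairing samples only where same-numbered libraries deviated together in all 3 pairs, which held for 2i+LIF LP with 2i+LIF PO (correlations 0.397, 0.345 and 0.179). Replicate 1 stood apart in both of these groups, so the correlations do not show that the libraries were matched.

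Alternatives were DESeq2 1.42.0, its size factors, no filter, fewer groups in the fit, a replicate block, libraries or abundant genes left out, and, added after seeing the data, Top2a left out of the mitotic sum and the removal of each library's trend on transcript length (lowess span 0.3, 10639 genes). The members and lists were chosen with earlier results of these data known. All 48 members could be named, and the values of every library are given for members called between media or passages (those of Rrm1 in LIF LP as a mean and SD). Of the other lists up to 3 called genes each way are given for comparisons of media or passage, and only some of those called against PO.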

Additional observations from a re-analysis of the deposited data

Results flagged for a closer look

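Genes outside the 48 showed a passage change that differed between LIF and CH+LIF by the interaction test. For the spindle motor gene Kif11 the log2 change from LP to HP was lower in LIF by a difference of -1.98 (SE 0.45, edgeR adjusted p = 0.0459): its levels were 18.6, 29.6 and 33.0 CPM in LIF HP and 98.6, 109 and 126 in LIF LP, against 99.3, 88.3 and 96.7 in CH+LIF HP and 87.2, 99.3 and 112 in CH+LIF LP. For Cdkn1a the difference was 2.61 (SE 0.51, edgeR adjusted p = 0.021): its levels were 503, 414 and 378 CPM in LIF HP and 145.4, 142.1 and 171 in LIF LP, against 98.6, 134.5 and 75.4 in CH+LIF HP and 154.1, 256 and 258 in CH+LIF LP. With the trend on transcript length removed the difference was still called for Cdkn1a (2.43, adjusted p = 0.0215) and not for Kif11 (-1.68, adjusted p = 0.139). In both genes the LIF HP libraries lay apart from the other 9. The PO libraries, not part of this test, were at 34 to 42.2 CPM for Kif11 and 224 to 530 CPM for Cdkn1a. Fits with 1 library left out are given for the 48 members only, so how far these calls rest on single libraries is not given here.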

How the results depend on the processing

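Counts of members called in the 3 comparisons of media at LP, CH+LIF HP against CH+LIF LP and the interaction of CH+LIF with 2i+LIF were 0 under every alternative. Elsewhere the counts depended on the setting, and no called member changed direction. DESeq2 gave 3 for LIF HP against CH+LIF HP, 7 for LIF HP against LIF LP, 1 for 2i+LIF HP against 2i+LIF LP, and against PO 8 for 2i+LIF LP, 5 for CH+LIF LP, 6 for 2i+LIF HP, 5 for CH+LIF HP and 5 for LIF HP. It gave 3 for the interaction of LIF with 2i+LIF, 2 for that of LIF with CH+LIF and 8 for the joint test. DESeq2 called 7.91% to 15.6% of all genes against PO, 4.92% in 2i+LIF HP against 2i+LIF LP, 1.51% and 1.35% in those interactions and 18.5% in the joint test. Leaving out both libraries that stood apart gave 1 for CH+LIF HP against 2i+LIF HP (4.95% of all genes), 7 for LIF HP against CH+LIF HP, 7 against 2i+LIF HP and 12 against LIF LP, and against PO 7, 7 and 13 for 2i+LIF, CH+LIF and LIF at LP and 10, 9 and 6 at HP. It gave 1 and 2 for the interactions of LIF with 2i+LIF and CH+LIF (1.52% and 3.18% of all genes), and 10 for the joint test (24.5%). Only the groups compared gave 15 for LIF HP against CH+LIF HP, 13 against LIF LP, 0 for 2i+LIF LP, CH+LIF LP and 2i+LIF HP against PO, 4 for the interaction of LIF with CH+LIF (6.09% of all genes) and 8 for the joint test (18%). No filter on low counts gave 1 for 2i+LIF HP against 2i+LIF LP, 4 for 2i+LIF LP, 4 for CH+LIF HP and 5 for LIF HP against PO, and 1 for the interaction of LIF with CH+LIF, beside 3.35%, 4.33%, 4.89%, 8.04% and 0.903% of all genes. With the length trend removed the count was 2 for LIF HP against LIF LP, 4, 5 and 4 for 2i+LIF LP, 2i+LIF HP and CH+LIF HP against PO (7.69%, 12.5% and 6.71% of all genes), and 2 for the joint test (11.9%). The replicate block gave 5 for 2i+LIF HP against PO and 1 for the interaction of LIF with CH+LIF (11.5% and 0.366% of all genes), where the numbers did not meet the rule for pairing. In 2i+LIF LP against PO, where they met it but replicate 1 stood apart in both groups, the block left the count at 2. The cause of these differences was not tested.

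With 1 library left out the counts ranged from 0 to 3 for LIF HP against CH+LIF HP, 0 to 6 against 2i+LIF HP, 2 to 8 against LIF LP, 0 to 1 for 2i+LIF HP against 2i+LIF LP and for the interaction of LIF with CH+LIF, and 1 to 8 for the joint test. The shares of all genes in these fits were 0.263% to 2.86%, 1.11% to 7.11%, 3.59% to 14.6%, 1.23% to 5.36%, 0.045% to 0.953% and 7.92% to 19.4% in the same order. Against PO they ranged from 0 to 8, 1 to 7 and 2 to 8 for 2i+LIF, CH+LIF and LIF at LP and from 0 to 6, 1 to 6 and 1 to 4 at HP, beside 1.71% to 17.3% of all genes. Without mitochondrial genes and Gm42418 the summed levels were higher in all 7 groups, and LIF HP was still lowest for mitosis at 1760 CPM. Without Top2a its mean of 972 CPM was the lowest of the 7 groups, but its libraries overlapped those of other groups. Depth, at a median of 1763531 gene counts, and the spread between libraries may both limit what smaller changes could be called, and their parts were not tested.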
